A study of Mus musculus with 24 samples.

Results

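The genes described here are nuclear genes for complexes II, III, IV and V of the mitochondrial respiratory chain, in hepatocytes from aged mice. Their members were chosen by name alone: gene names that are Sdha, Sdhb, Sdhc or Sdhd, or that begin with Uqcr, Cox4 to Cox8 or Atp5, with pseudogene names containing -ps left out. The rule found 49 of the 55421 genes in the count table, under 48 names: 4 genes of complex II, 8 of complex III, 19 of complex IV and 18 of complex V. It leaves out subunits with other names, so the members are not always the whole of a complex. Cyc1, cytochrome c1 of complex III, is such a gene and is given below among the electron carriers. The study asked how long-term rapamycin changes the response of the old liver to a high-fat diet.

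Polyadenylated RNA was sequenced from isolated hepatocytes of 24 male C57BL/6J mice, 1 library per animal. The 8 ND+veh mice received vehicle from 4 months of age and stayed on normal diet. The 7 HFD+veh mice received the same vehicle and were given, from 18 months and for 9 weeks, feed in which fat supplied 60% of calories. The 9 HFD+eRapa mice were moved to the same high-fat diet, but had been fed eRapa, rapamycin in a eudragit capsule, at 42 ppm from 4 months. The first comparison below (HFD+veh against ND+veh) differs in diet, the second (HFD+eRapa against HFD+veh) in drug, and the third (HFD+eRapa against ND+veh) in both. Each pair of comparisons shares a group of animals, so their values are given side by side and are not independent of each other.

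Complex II, succinate dehydrogenase, is both an enzyme of the tricarboxylic acid cycle and an entry point for electrons into the chain, and all its subunits are encoded in the nucleus. Complex III, the cytochrome bc1 complex, passes electrons from coenzyme Q to cytochrome c and pumps protons. Complex IV, cytochrome c oxidase, hands the electrons to oxygen, and complex V, ATP synthase, uses the proton gradient to make ATP. Complexes III, IV and V are each built from subunits of both genomes: mitochondrial DNA supplies cytochrome b, the catalytic core of cytochrome c oxidase and part of the proton channel of ATP synthase, and the nucleus supplies the rest. Hepatocytes are rich in mitochondria and depend on these complexes to burn fatty acids.

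Libraries held 17739252 to 25945134 gene counts, and no difference in total counts between groups passed an exact permutation test (two-sided, adjusted p of 0.815, 0.166 and 0.383 in the order of the comparisons above). Hepatocyte markers were abundant in every library, with albumin (Alb) at 31430 to 127993 CPM. Markers of other liver cells differed between groups. The 11 macrophage markers summed to 51.9 to 1545 CPM in ND+veh, 196 to 5857 CPM in HFD+veh and 19.3 to 1217 CPM in HFD+eRapa; 4 of the 11 rose in HFD+veh against ND+veh, and 9 fell in HFD+eRapa against HFD+veh. In the latter comparison all 8 endothelial and all 7 tested stellate cell markers fell, as did 2 of 3 neutrophil, 1 of 2 lymphocyte and 1 of 3 cholangiocyte markers. Against ND+veh, HFD+veh also showed higher values of 2 endothelial, 2 stellate, 3 cholangiocyte, 2 neutrophil and 1 lymphocyte markers, while 2 of 11 hepatocyte markers fell. Between HFD+eRapa and ND+veh, 3 stellate markers fell and 1 cholangiocyte marker rose, and the drug raised 3 hepatocyte markers over HFD+veh. A fit that carried a score of immune cell markers as a covariate (the immune covariate fit) was also run for every test of a gene, and the calls it ended are given beside them. In bulk RNA of this kind, fewer cells of a type and less RNA per cell cannot be told apart.

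Of the 49 genes, 41 passed the filter on low counts and were tested: all 4 of complex II, all 8 of complex III, 12 of complex IV and 17 of complex V. The genes below the filter were mostly tissue-specific isoforms of complex IV. Cox4i2, the lung-type form of subunit 4, had at most 4 counts in any library, and Cox6a2 and Cox8b, heart and skeletal muscle forms, had at most 8 and 1. Cox6b2, a testis form, reached 31 counts in 1 ND+veh library, and Cox7b2 and Cox8c, also testis forms, were at 0 in all 24. A count of 0 in a single library, taken alone, allows an expected count of up to 3, and all 24 together allow less. Cox6c2, annotated as a processed pseudogene, had 2 to 14 counts, and the second of the IDs named Atp5o was at 0. The 8 heart and skeletal muscle markers summed to at most 1.11 CPM in any library, with Myh6, the cardiac myosin heavy chain, at 0 in all.

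Among the tested genes, levels per unit of transcript length spanned a wide range. The highest median FPKM (reads scaled to transcript length and library size, as deposited) over the 24 libraries was 1062 for Atp5b, the catalytic beta subunit of ATP synthase. Cox6a1, the liver form of subunit 6a, followed at 731 and Atp5e, the epsilon subunit of the ATP synthase rotor, at 727. The 4 genes of complex II lay close together, from 152 (Sdhc) to 183 (Sdha). At the other end stood Cox7a1, the heart and skeletal muscle form of subunit 7a, at 5.35. Cox4i1, the common form of subunit 4, is listed at 0 FPKM in every library although it had 4273 to 8403 counts, so only its counts are used here.

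On high-fat diet alone, none of the 41 genes passed the test. In edgeR's quasi-likelihood test, comparing HFD+veh with ND+veh, 0 of 41 reached the threshold (adjusted p of 0.05), where 25.9% of all 13847 genes tested did (16.0% higher and 9.86% lower). DESeq2 and limma voom also called 0, and 3 genes (Sdhb, Atp5k and Uqcrc2) had an unadjusted p under 0.05, as did 5472 of all 13847. The fitted log2 fold change was positive for 30 of 41 and for 54.1% of all genes tested, with medians of 0.13 and 0.05. By complex, the medians were 0.12 (II), 0.14 (III), 0.15 (IV) and 0.13 (V). The 95% interval of the fold change lay within 1 log2 unit of 0 for 40 of 41 genes, the exception being Atp5k.

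In HFD+eRapa against HFD+veh, 3 of the 41 genes rose (Uqcrq, Cox7a2l and Atp5g2) and 1 fell (Cox7a1). Over all genes tested, 32.0% were called in this comparison, 10.9% higher and 21.1% lower. The median log2 fold change of the members was 0.14, against -0.04 over all genes tested. It was positive for 36 of 41, against 46.8% of all genes. The medians by complex were 0.12, 0.15, 0.15 and 0.11 from II to V. In the immune covariate fit 0 of 41 passed, and the share called over all genes tested also fell, from 32.0% to 6.89%. The log2 fold changes in that fit were 0.38 for Cox7a2l (adjusted p = 0.0538, from 0.31), 0.27 for Atp5g2 (0.214, from 0.31), 0.47 for Uqcrq (0.259, from 0.53) and -0.73 for Cox7a1 (0.297, from -1.02).

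In HFD+eRapa against ND+veh, 4 genes rose (Uqcrc2, Sdhb, Atp5a1 and Sdha) and 0 fell, where 13.5% of all genes were called (6.93% higher and 6.54% lower). Here 39 of 41 fold changes were positive, against 45.3% over all genes, with medians of 0.28 and -0.03. An unadjusted p under 0.05 was found for 17 members and for 3598 of all 13847 genes. The members varied together within groups, as given below, so these counts are not of independent genes. The medians by complex were 0.28, 0.32, 0.26 and 0.27. In the immune covariate fit the 4 genes kept their calls, and Atp5k (0.73, adjusted p = 0.0319) and Cox7a2l (0.27, adjusted p = 0.0468) also passed. The share called over all genes tested also rose in that fit, from 13.5% to 19.4%. No member's groups were free of overlap in any of the comparisons, while the values of 2.44%, 2.59% and 3.37% of all genes tested did not overlap between groups. Among the 4834 genes within the range of mean level spanned by the members apart from Cox7a1, 26.1%, 28.4% and 15.0% were called, with median log2 fold changes of -0.05, 0.10 and 0.04.

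Other ways to fit the data ended several of these calls. Without a filter on low counts, all 4 calls of HFD+eRapa against ND+veh were lost, with adjusted p of 0.143 for Sdha, 0.0929 for Sdhb, 0.0622 for Uqcrc2 and 0.112 for Atp5a1. Of the 30483 genes then tested, 4.56% were called. On FPKM, with limma, Cox7a2l, Atp5g2, Uqcrq and Sdha were lost. Uqcrq was lost as well with DESeq2's size factors (adjusted p = 0.0507), with a minimum of 10 counts in every library (0.0598) and in a fit of only the groups compared (0.0686).

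**Figure D1:**
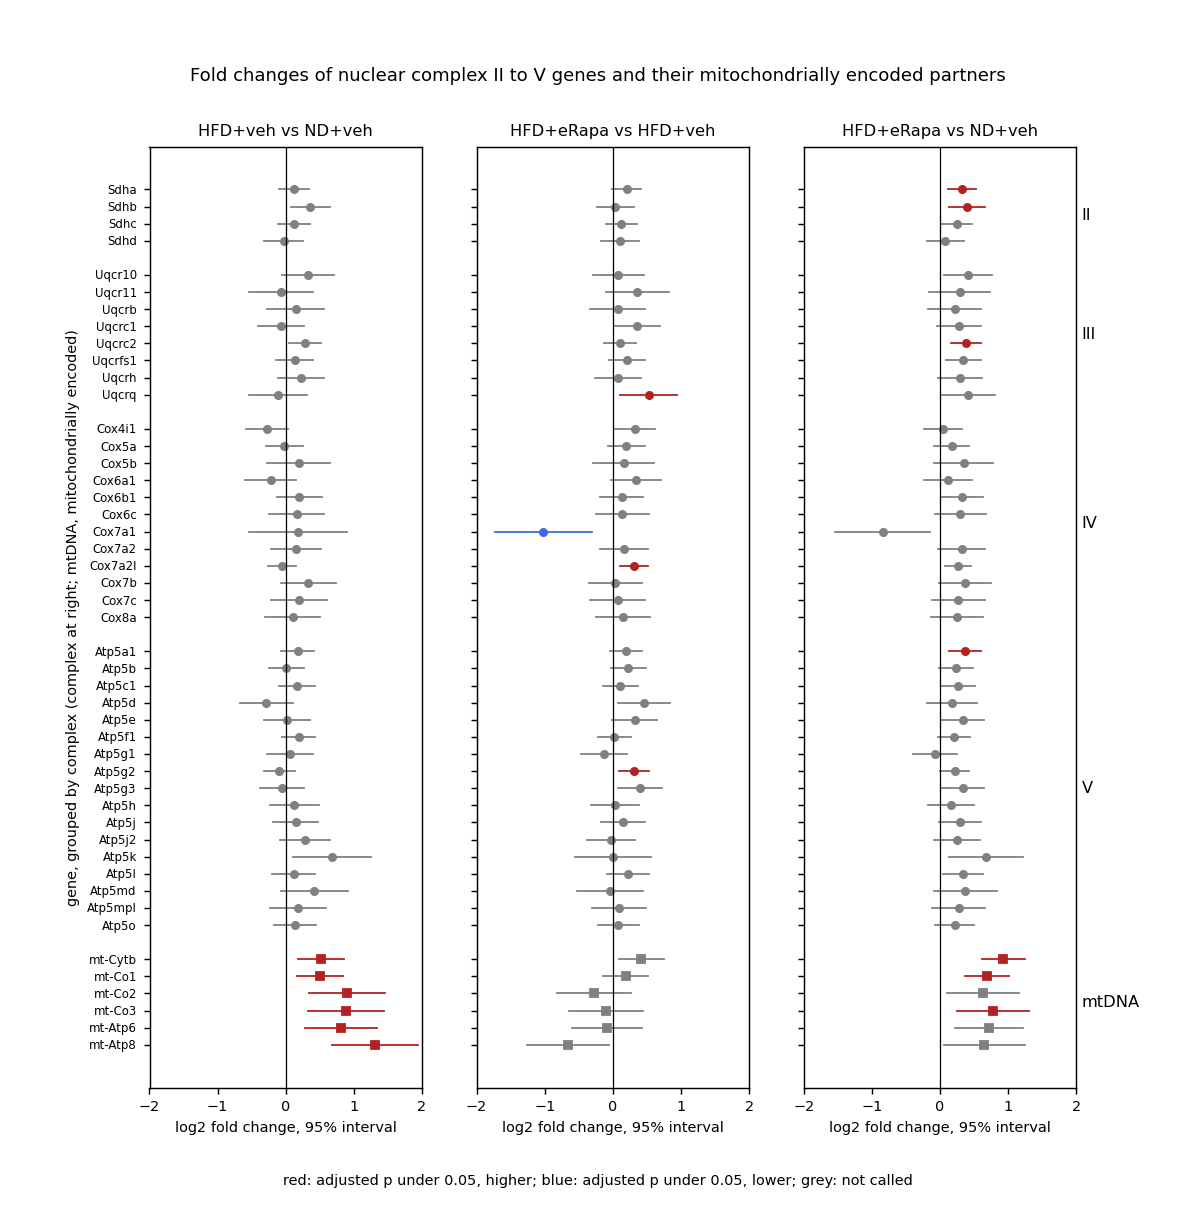
Log2 fold change (edgeR, with 95% interval) of each tested nuclear gene, grouped by complex, and of the mitochondrially encoded subunits of the same complexes (squares), in the 3 comparisons. Red and blue mark adjusted p under 0.05. The nuclear genes sit between -0.29 and 0.68 on high-fat diet alone, with 0 called, and 39 of 41 lie above 0 in HFD+eRapa against ND+veh.

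Complex II. Sdha, the flavoprotein subunit that oxidises succinate, lies on chromosome 13 (74322254 to 74350280, minus strand, GRCm38). Its level was 392 to 560 CPM in ND+veh (median 481), 381 to 646 in HFD+veh (median 536) and 534 to 667 in HFD+eRapa (median 598). The lowest HFD+eRapa animal stood above 7 of the 8 ND+veh animals, while HFD+veh spanned nearly the whole range of both. Sdha rose in HFD+eRapa against ND+veh by 0.32 on the log2 scale (SE 0.10, edgeR adjusted p = 0.0351). The other differences were 0.12 for diet (adjusted p = 0.433) and 0.20 for the drug (adjusted p = 0.141).

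Sdhb, the iron-sulphur subunit (chromosome 4, 140961203 to 140979193, plus strand), was at 110 to 187 CPM in ND+veh (median 145), 142 to 253 in HFD+veh (median 173) and 154 to 238 in HFD+eRapa (median 202). Against ND+veh its log2 fold change was 0.36 in HFD+veh (SE 0.14, adjusted p = 0.0530, edgeR) and 0.40 in HFD+eRapa (SE 0.13, adjusted p = 0.0407), and between the groups on high-fat diet it was 0.04 (95% interval -0.24 to 0.31). Sdhb had the smallest adjusted p of the members for diet, and it passed when any 1 of ND+veh 5, 7 or 8, HFD+veh 2 or 4 or HFD+eRapa 9 was left out, with the lowest value at 0.0400. Sdhc and Sdhd, the membrane anchors that hold the quinone site, were not called. Sdhc had medians of 161, 168 and 200 CPM in ND+veh, HFD+veh and HFD+eRapa, and Sdhd of 185, 183 and 194 CPM.

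The calls of Sdha and Sdhb in HFD+eRapa against ND+veh each depended on single animals. Each was lost in 11 of the 24 fits that left out 1 library. For both these included ND+veh 1, 3, 4 and 6, HFD+veh 3 and HFD+eRapa 1, 3, 5 and 8. For Sdha ND+veh 8 and HFD+eRapa 6 were added, and for Sdhb ND+veh 2 and HFD+eRapa 2. The log2 fold change stayed between 0.26 and 0.35 for Sdha and between 0.33 and 0.45 for Sdhb, and the highest adjusted p was 0.112 and 0.111.

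Complex III. Uqcrc2, a core subunit of the matrix side of the complex (chromosome 7, 120635176 to 120659524, plus strand), was at 153 to 248 CPM in ND+veh (median 203), 209 to 306 in HFD+veh (median 260) and 215 to 329 in HFD+eRapa (median 273). The lowest animals of both groups on high-fat diet stood above the ND+veh median. It rose in HFD+eRapa against ND+veh by 0.38 (SE 0.11, edgeR adjusted p = 0.0204), the smallest adjusted p of the members in that comparison. The fold change for diet alone was 0.28 (adjusted p = 0.0749). The call was lost without ND+veh 1 (0.34, adjusted p = 0.0652) and without ND+veh 4 (0.31, adjusted p = 0.0695).

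Uqcrq, the small subunit that binds near the quinone site (chromosome 11, 53427922 to 53430831, minus strand), was at 135 to 290 CPM in ND+veh (median 210), 106 to 296 in HFD+veh (median 178) and 174 to 429 in HFD+eRapa (median 266). The animals spread widely within every group, and 1 HFD+eRapa animal (replicate 8) stood far above the rest. Uqcrq rose in HFD+eRapa against HFD+veh by 0.53 (SE 0.20, adjusted p = 0.0497), just inside the threshold. It was lost in 15 of 24 fits without 1 library: ND+veh 2, 3, 5 or 6, HFD+veh 2, 3, 4 or 6, or HFD+eRapa 1, 2, 3, 5, 6, 7 or 8. The fold change then ran from 0.43 to 0.54, with adjusted p up to 0.106.

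The other 6 members of complex III were not called in any comparison. Uqcrc1, the partner of Uqcrc2 in the core, had a log2 fold change of -0.08 for diet and 0.35 for the drug (adjusted p = 0.0939). HFD+veh replicate 6 had 90.7 CPM of Uqcrc1, where the other HFD+veh animals had 164 to 269. Uqcrfs1, the Rieske iron-sulphur protein that carries electrons towards cytochrome c1, was at medians of 185, 203 and 249 CPM, with a log2 fold change of 0.34 in HFD+eRapa against ND+veh (adjusted p = 0.0684). The small subunits Uqcr10, Uqcr11, Uqcrb and Uqcrh had values of 0.41, 0.29, 0.22 and 0.30 in that comparison.

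**Figure D2:**
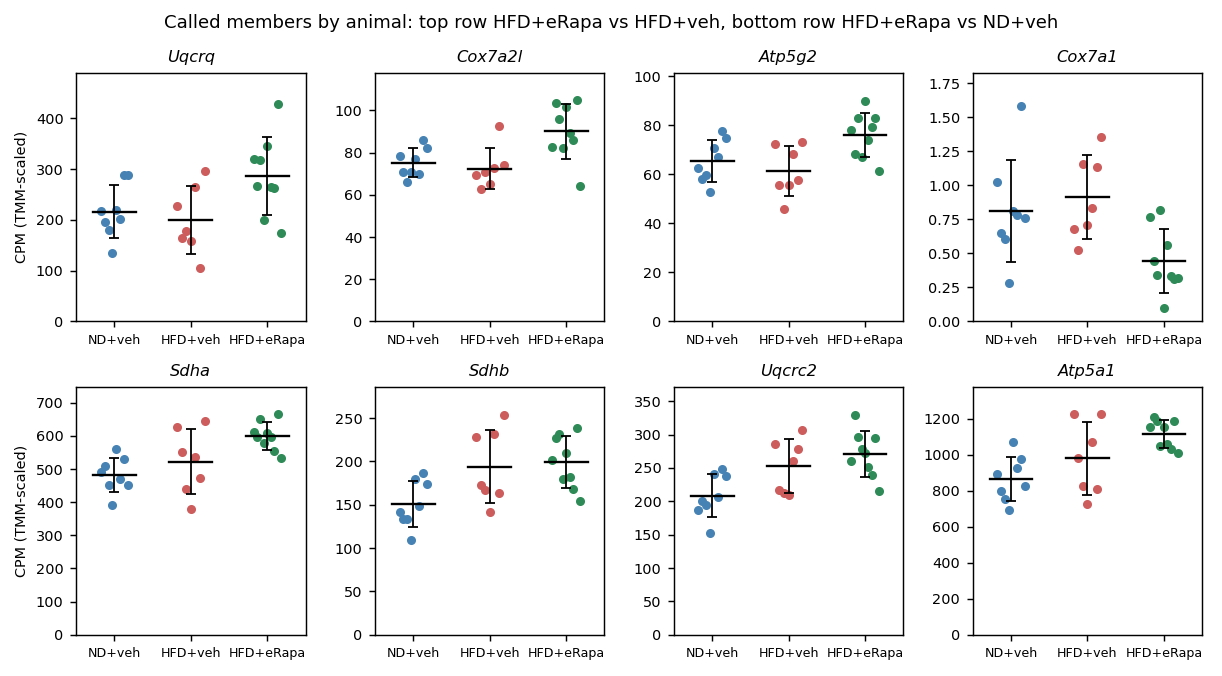
CPM of each animal for the 8 members that passed adjusted p 0.05 in a comparison, with the group mean (horizontal line) and SD (bars). The groups overlap in every panel. Cox7a1 is on a scale of about 1 CPM, where 2 to 30 counts stand behind each point.

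Complex IV. Cox7a2l, a relative of subunit 7a (chromosome 17, 83501918 to 83517330, minus strand), had the smallest adjusted p of the members for the drug. It was at 66.1 to 85.8 CPM in ND+veh (median 74.1), 62.9 to 92.6 in HFD+veh (median 70.9) and 64.1 to 104.8 in HFD+eRapa (median 89.1). In HFD+veh 6 of 7 animals lay at or below 74.2 CPM, and in HFD+eRapa 8 of 9 lay at or above 82.4, and the exceptions were HFD+veh replicate 6 (92.6) and HFD+eRapa replicate 9 (64.1). Cox7a2l rose by 0.31 in HFD+eRapa against HFD+veh (SE 0.10, edgeR adjusted p = 0.0179). The call held without any single library, with adjusted p from 0.00489 to 0.0368, but it was lost on FPKM (0.21, limma adjusted p of 0.104 and 0.108 with either pseudocount).

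Cox7a1 was the only member that fell, and its level was very low. It was at 0.283 to 1.58 CPM in ND+veh (median 0.772), 0.529 to 1.36 in HFD+veh (median 0.833) and 0.103 to 0.818 in HFD+eRapa (median 0.340), from 2 to 30 counts per library. Of the 9 HFD+eRapa animals, 7 stood below 0.6 CPM, against 1 of 7 in HFD+veh. The log2 fold change was -1.02 in HFD+eRapa against HFD+veh (SE 0.35, adjusted p = 0.0263) and -0.84 against ND+veh (adjusted p = 0.104). The call was lost without HFD+veh 3, 6 or 7 (-0.93 to -0.90, adjusted p of 0.0657, 0.0670 and 0.0550). It was also lost without a filter on low counts (-0.97, adjusted p = 0.0667) and with a block for replicate number (-0.95, adjusted p = 0.0988). Without ND+veh 4 and HFD+veh 6 together, libraries chosen after their values were seen, it was lost as well (-0.92, adjusted p = 0.0523). DESeq2 kept the call. Stellate and macrophage markers fell in the same comparison. The immune covariate was made from macrophage, lymphocyte and neutrophil markers, and holds no stellate marker. The part of stellate cells in this value was not tested, and that of macrophages was not tested beyond the covariate fit above.

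The ubiquitous subunits of complex IV were not called. Cox4i1 was at medians of 320, 244 and 323 CPM in ND+veh, HFD+veh and HFD+eRapa, with log2 fold changes of -0.28 for diet (adjusted p = 0.163) and 0.32 for the drug (adjusted p = 0.0873). Cox6a1 had the same pattern of medians, 248, 205 and 243 CPM, with -0.22 and 0.34. In both genes the lowest HFD+veh animal was replicate 6, at 180 CPM for Cox4i1 and at 102 CPM for Cox6a1. The other HFD+veh animals had 225 to 332 CPM of Cox4i1 and 179 to 298 CPM of Cox6a1. Cox5a, which binds subunit 4, was at medians of 117, 100 and 128 CPM. The remaining 7 tested genes of complex IV (Cox5b, Cox6b1, Cox6c, Cox7a2, Cox7b, Cox7c and Cox8a) had log2 fold changes of 0.10 to 0.33 for diet, 0.03 to 0.17 for the drug and 0.25 to 0.36 for both together.

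Cox7a1, Cox7a2 and Cox7a2l are paralogues, and the 150 bases before the RefSeq start of Cox7a1 (GRCm38.p6, chr7:30184021-30184170, plus strand) are shown because it was the member that fell:
Cox7a1: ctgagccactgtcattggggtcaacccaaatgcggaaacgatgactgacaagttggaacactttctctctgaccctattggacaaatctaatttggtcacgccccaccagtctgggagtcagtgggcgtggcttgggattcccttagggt
No motif of the 5 that were searched, described below, is in it, so no letter is in capitals. As a share of the summed FPKM of the 3 paralogues, Cox7a1 made up 2.00% ± 0.951 (SD, n = 8) in ND+veh, 2.13% ± 0.587 (n = 7) in HFD+veh and 1.01% ± 0.592 (n = 9) in HFD+eRapa. The share fell from HFD+veh to HFD+eRapa by an exact permutation test (two-sided, p = 0.0035, adjusted p = 0.0126 over 18 tests of isoform shares) and was also lower than in ND+veh (adjusted p = 0.0449), though the latter was lost in 10 of 24 fits without 1 library (without ND+veh 1, 3, 5 or 7 or HFD+eRapa 2, 3, 5, 7, 8 or 9), with adjusted p up to 0.0981. Cox7a2, the liver form, made up 72.0%, 74.4% and 73.7% and Cox7a2l 26.0%, 23.4% and 25.3%, and neither share passed the test in any comparison. Reads shared between paralogues could move such shares.

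Complex V. Atp5a1, the alpha subunit that forms the catalytic head with the beta subunit, was at 693 to 1070 CPM in ND+veh (median 860), 725 to 1228 in HFD+veh (median 983) and 1013 to 1208 in HFD+eRapa (median 1154). All 9 HFD+eRapa animals stood above 7 of the 8 ND+veh animals. Atp5a1 rose in HFD+eRapa against ND+veh by 0.37 (SE 0.11, edgeR adjusted p = 0.0287). Its differences were 0.18 for diet and 0.19 for the drug, of which neither passed. The call was lost without ND+veh 1, 2, 3 or 4 or HFD+eRapa 8, with fold changes of 0.31 to 0.35 and adjusted p up to 0.0904. Atp5b, its partner in the head, was at medians of 1036, 1008 and 1158 CPM, and its log2 fold change of 0.23 in HFD+eRapa against ND+veh was not called.

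At the ends of the range for diet stood Atp5k and Atp5d. Atp5k, the e subunit of the membrane part, had the highest value at 0.68 (SE 0.28, adjusted p = 0.0743), on medians of 16.0, 24.9 and 26.1 CPM. It passed without ND+veh 8 (0.83) or HFD+veh 2 (0.80). Atp5d, the delta subunit of the rotor stalk, had the lowest at -0.29 (adjusted p = 0.270), and with the drug its value was 0.45 (adjusted p = 0.0641). A single HFD+veh animal, replicate 6, had 66.2 CPM of Atp5d, where the other HFD+veh animals had 133 to 231. The same animal had the lowest Uqcrq and Cox6a1 of its group and the highest Cox7a2l.

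**Figure D3:**
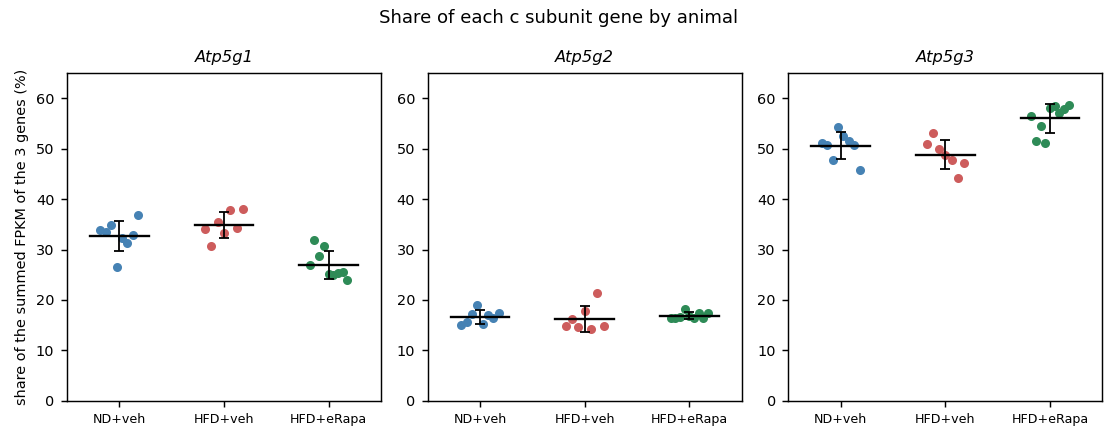
Share of each of the 3 c subunit genes in their summed FPKM, per animal, with group mean (line) and SD (bars). In HFD+eRapa the Atp5g1 share lies at 23.9 to 32.0% and the Atp5g3 share at 51.2 to 58.8%, below and above most animals of the other groups. The Atp5g2 share lies at 14.3 to 21.5% in all.

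The balance among the c subunit genes shifted in HFD+eRapa. Atp5g1, Atp5g2 and Atp5g3 encode the same mature protein, the c subunit of the rotating ring of ATP synthase, with different targeting sequences at the front. Atp5g2 rose in HFD+eRapa against HFD+veh by 0.31 (SE 0.11, edgeR adjusted p = 0.0280), from 45.9 to 73.3 CPM (median 57.6) to 61.3 to 89.8 (median 78.0), with ND+veh at 52.9 to 77.7 (median 64.7). Its call was lost without HFD+veh 3 (0.27, adjusted p = 0.0628) or 4 (0.30, adjusted p = 0.0538), or without HFD+eRapa 5 (0.28, adjusted p = 0.0572). Atp5g3 had a log2 fold change of 0.39 (adjusted p = 0.0539, edgeR) and Atp5g1 of -0.13, neither past the threshold, on medians of 226 and 322 CPM for Atp5g3 and of 116 and 126 CPM for Atp5g1.

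As shares of the summed FPKM of the 3 genes, Atp5g1 fell and Atp5g3 rose. Atp5g1 made up 32.8% ± 2.99 (SD, n = 8) in ND+veh, 34.8% ± 2.60 (n = 7) in HFD+veh and 27.0% ± 2.78 (n = 9) in HFD+eRapa. The difference between HFD+eRapa and HFD+veh was -7.80 percentage points (exact permutation test, two-sided, p = 0.000262, adjusted p = 0.00472 over 18 tests) and that between HFD+eRapa and ND+veh -5.74 points (adjusted p = 0.00889). Atp5g3 made up 50.6% ± 2.68, 48.9% ± 2.86 and 56.0% ± 2.91, a difference of 7.18 points between HFD+eRapa and HFD+veh (exact permutation test, p = 0.000612, adjusted p = 0.00551) and of 5.44 points against ND+veh (adjusted p = 0.00889). Atp5g2 made up 16.6%, 16.3% and 16.9%, with no difference past the threshold. Diet alone moved none of these shares past the threshold (2.06 points for Atp5g1, exact permutation test, adjusted p = 0.358). The shares of the 3 genes add up to the whole and that of Atp5g2 was nearly level. The fall of Atp5g1 and the rise of Atp5g3 are therefore not separate results. The 4 differences of Atp5g1 and Atp5g3 kept their direction and side of the threshold without any single library and when shares were taken from CPM, although the values of the groups overlapped.

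The 150 bases before the RefSeq starts of the 3 c subunit genes and of Sdha are shown to set side by side the promoters of genes for the same protein and of the member with the most NRF1 motif matches within this length. Capitals mark matches, on either strand, to the motif of NRF1, a factor known for nuclear respiratory genes, whose letters are GCGC, any base, then TGCGC. All are from GRCm38.p6, and all 4 genes lie on the minus strand. The regions are chr11:96075632-96075781 for Atp5g1, chr15:102671048-102671197 for Atp5g2, chr2:73911327-73911476 for Atp5g3 and chr13:74350241-74350390 for Sdha.
Atp5g1: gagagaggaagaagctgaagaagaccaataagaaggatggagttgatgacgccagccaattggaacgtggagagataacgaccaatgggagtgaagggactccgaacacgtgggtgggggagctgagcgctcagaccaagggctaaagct
Atp5g2: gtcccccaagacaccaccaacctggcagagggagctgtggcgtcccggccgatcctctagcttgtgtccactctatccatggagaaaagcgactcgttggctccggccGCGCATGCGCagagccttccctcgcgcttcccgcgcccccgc
Atp5g3: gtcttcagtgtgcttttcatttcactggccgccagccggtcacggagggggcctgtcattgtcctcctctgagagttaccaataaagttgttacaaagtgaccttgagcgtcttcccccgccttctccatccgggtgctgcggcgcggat
Sdha: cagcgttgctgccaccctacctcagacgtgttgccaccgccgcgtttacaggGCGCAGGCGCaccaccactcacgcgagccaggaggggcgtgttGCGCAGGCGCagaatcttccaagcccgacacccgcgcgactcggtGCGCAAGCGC
Sdha holds 3 such stretches and Atp5g2 holds 1, which reads the same on both strands, and Atp5g1 and Atp5g3 hold none in this window. Over the 250 bases searched, Cox6a1 also had 3 matches.

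RefSeq promoters were matched for 36 of the members, 39 starts in all, of which Atp5f1 was matched as Atp5pb. Over the 250 bases before the start, the NRF1 motif was found in 7 of 39 member promoters (17.9%), against 3.74% of all 32851 promoters of the same length and 7.63% of the 13290 promoters of genes tested here. CCGGAAG, the letters of ETS factors such as GABP, was in 9 (23.1%, against 6.91% and 12.8%). ATGGCGG (YY1) and TGACGTCA (the cyclic AMP response element) were each in 1 (2.56%, against 2.21% and 3.63% for the former and 1.55% and 2.41% for the latter). TATAAA was in 3 (7.69%, against 12.4% and 7.07%). All were searched on both strands, and a match is a run of letters and not a shown binding site.

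**Figure D4:**
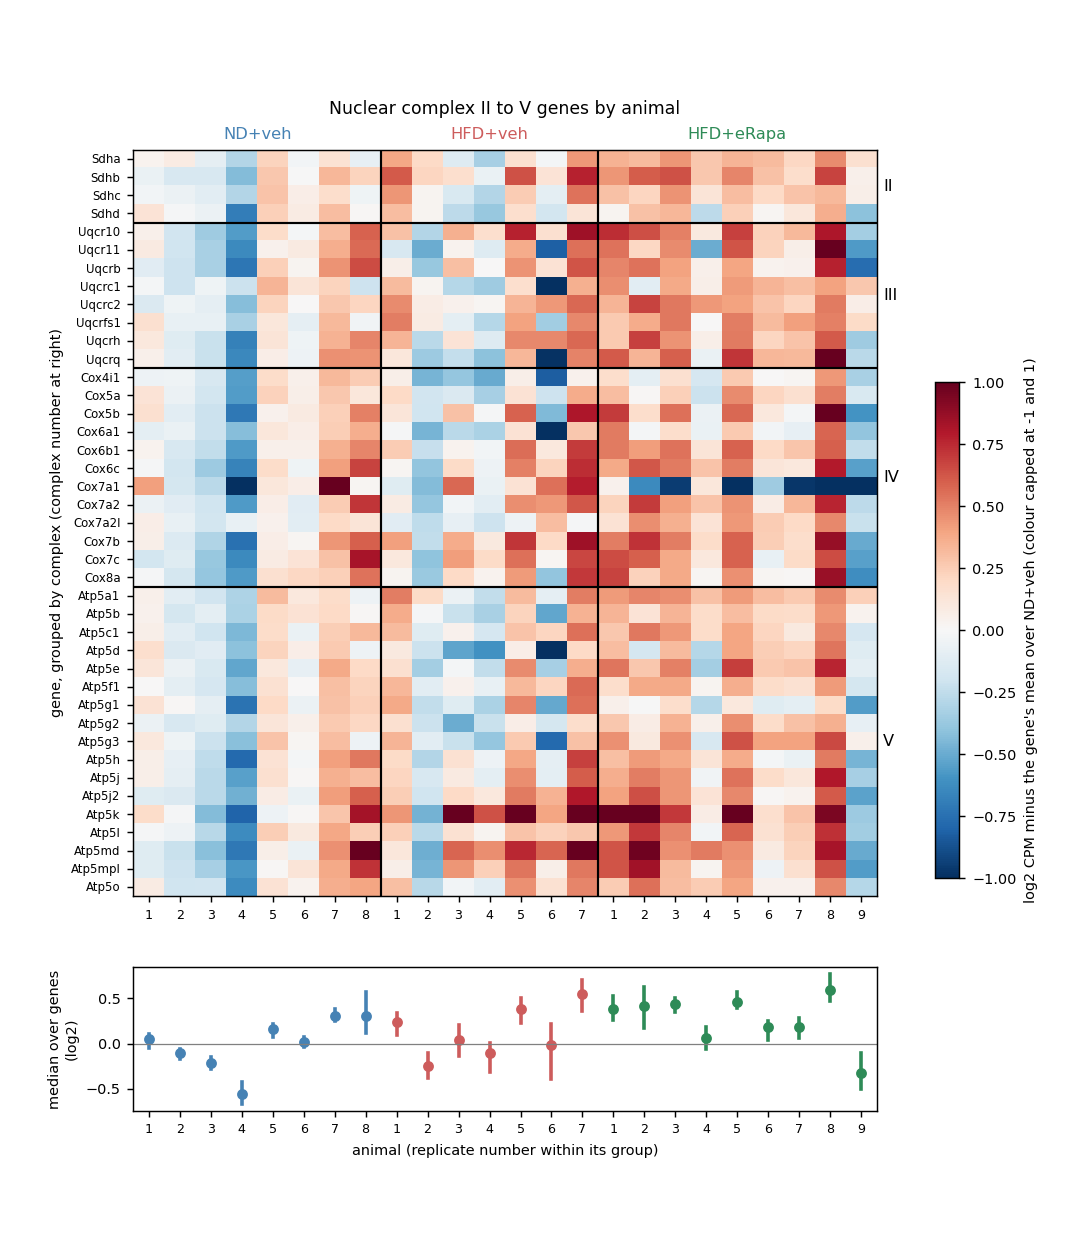
Upper panel: log2 CPM of each tested member (rows, by complex) in each animal (columns) minus its mean over ND+veh, with colour capped at -1 and 1. Lower panel: median over the 41 genes per animal, with the bar from the lower to the upper quartile. Many columns are mostly of 1 colour, from ND+veh replicate 4 (median -0.56) to HFD+eRapa replicate 8 (median 0.60). Others are mixed, such as HFD+veh replicate 6, with 20 genes above 0 and 21 below.

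The members varied together from animal to animal. The median over the 41 genes of the deviation from the ND+veh mean ran from -0.56 to 0.31 in ND+veh (median 0.03), from -0.25 to 0.55 in HFD+veh (median 0.04) and from -0.33 to 0.60 in HFD+eRapa (median 0.38) on the log2 scale, with a pooled SD of 0.284 within groups. In ND+veh replicate 4 all 41 genes lay below the ND+veh mean, and in ND+veh replicate 7 all 41 lay above it. Of the 9 HFD+eRapa animals 8 had a positive median, and replicate 9 was at -0.33 with 32 of 41 genes below. The ranges of the 3 groups overlapped over most of their length. The genes share library and scaling within an animal, so these values describe each library as well as the genes. ND+veh replicate 4 had the largest TMM scaling factor of the 24 libraries (1.295), by which its CPM are divided. The members took 0.6996% of its counts, against 0.6918% in ND+veh replicate 2 and 0.7035% in replicate 3. The medians of those 2 animals were -0.11 and -0.21. The part of scaling in the low values of replicate 4, or in the calls lost without it, was not tested.

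With group means removed, the Pearson correlation between pairs of members over the 24 libraries had a median of 0.755 (820 pairs, -0.26 to 0.98). It was 0.834 within complex II, 0.710 within III, 0.751 within IV and 0.765 within V, and 0.749 between complexes. Atp5j, coupling factor 6 of ATP synthase, had the highest median correlation with the others at 0.879. The lowest were Cox7a1 (0.269), Uqcrc1 (0.391), Cox7a2l (0.524), Atp5d (0.570) and Sdha (0.579), and Cox7a1, Cox7a2l and Sdha are among the called genes above. A further correlation, for genes outside the members, left the group means in. The genes whose log2 CPM was most like the mean standardised level of the members over 24 libraries were Ndufa7 (r = 0.953), Tmem256 (0.943), Ndufb9 (0.942), Ndufa13 (0.935) and Commd1 (0.925). Those beginning with Nduf encode subunits of complex I. These correlations rest on shared libraries and carry no test.

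**Figure D5:**
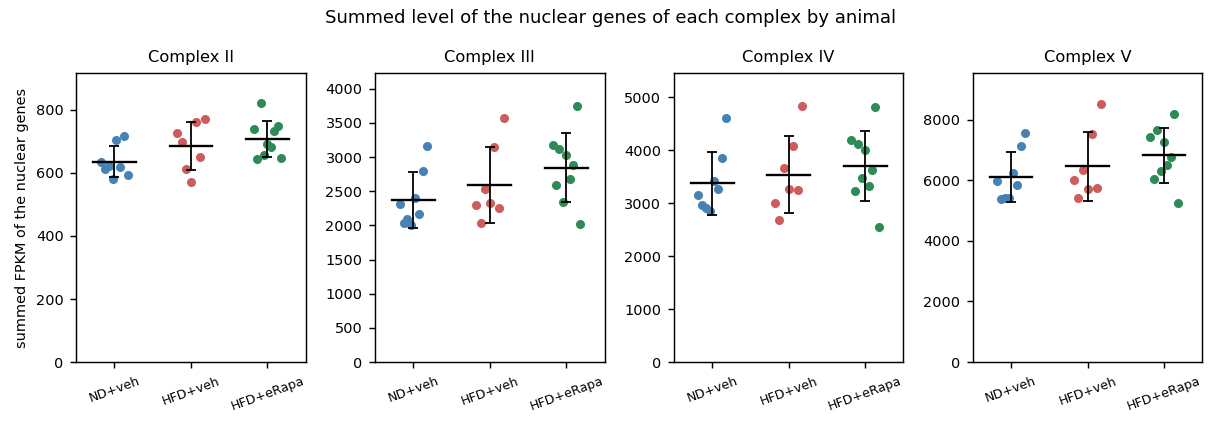
Summed FPKM of the members of each complex in each animal, with group mean (line) and SD (bars). Medians rise from ND+veh to HFD+eRapa in all 4 panels, and the groups overlap in each. The complex IV sums lack Cox4i1.

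Summed per complex, the members stood at 582 to 717 FPKM for complex II in ND+veh (median 620), 571 to 771 in HFD+veh (median 698) and 645 to 820 in HFD+eRapa (median 692). For complex III the medians were 2239, 2331 and 2877 FPKM, for complex IV, without Cox4i1, 3215, 3262 and 3618, and for complex V 5912, 6015 and 6755. In FPKM the highest ND+veh animal exceeded the HFD+eRapa median in every complex, while in summed CPM, which include Cox4i1, it did so only for complex IV and the groups still overlapped. In CPM the HFD+veh median was below that of ND+veh for complexes III (1081 against 1122), IV (1479 against 1512) and V (3622 against 3914). The direction of these medians for diet thus turned with the unit, but that of the means did not. Mean CPM in HFD+veh was above that in ND+veh for complexes III (1207 against 1133), IV (1535 against 1529) and V (4047 against 3807). In CPM the HFD+eRapa median was the highest of the 3 in every complex. As a share of all counts, the 49 genes took 0.753% ± 0.0560 (SD, n = 8) in ND+veh, 0.795% ± 0.0880 (n = 7) in HFD+veh and 0.862% ± 0.0877 (n = 9) in HFD+eRapa.

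The edgeR test called the mitochondrially encoded subunits of the same complexes higher on high-fat diet, but these calls depended on the fit. All 6 (mt-Cytb of complex III, mt-Co1, mt-Co2 and mt-Co3 of complex IV, mt-Atp6 and mt-Atp8 of complex V) rose in HFD+veh against ND+veh, as did 16.0% of all genes tested. The median log2 fold change of the 6 was 0.84. The values ran from 0.50 for mt-Co1 (adjusted p = 0.0289) to 1.31 for mt-Atp8 (adjusted p = 0.00490). In HFD+eRapa against HFD+veh 0 of 6 were called by edgeR (2 at an unadjusted p under 0.05), 1 by DESeq2 and 0 by limma voom. In HFD+eRapa against ND+veh 3 of 6 rose, against 6.93% of all genes: mt-Cytb by 0.93, mt-Co3 by 0.77 and mt-Co1 by 0.69. The call of mt-Co3 was lost in 16 of 24 fits without 1 library (adjusted p up to 0.121). mt-Cytb was at 5330 to 12750 CPM in ND+veh (median 8432), 7951 to 14044 in HFD+veh (median 12291) and 12195 to 21292 in HFD+eRapa (median 15897). The lowest HFD+eRapa animal stood just below the highest ND+veh animal.

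These mitochondrial calls depended on the fit. In the immune covariate fit 0 of 6 passed for diet and 6 of 6 passed in HFD+eRapa against ND+veh. That fit called 8.78% and 19.4% of all genes tested in these comparisons. Leaving out 1 library gave 1 to 6 calls for diet (3 without ND+veh 1 or 4, 5 without ND+veh 3 or HFD+veh 5, 2 without HFD+veh 3 and 1 without HFD+veh 4 or 6), and 2 to 4 in HFD+eRapa against ND+veh. Without ND+veh 4 and HFD+veh 6 together, libraries chosen after their values were seen, 1 of 6 passed for diet, and 3 did without a filter or on FPKM, where mt-Atp8 turned to -0.12. mt-Co2, mt-Co3, mt-Atp6 and mt-Atp8 were counted at low levels (medians of 2.46 to 44.1 CPM in ND+veh), where mt-Co1 had a median of 21573 CPM. Near-identical copies of these genes in the nuclear genome can take such reads out of a count of uniquely placed reads, so their values are uncertain. For mt-Atp8 the counts and FPKM differ widely. It had the highest FPKM of all genes in several libraries, among them ND+veh 4 (34437) and HFD+eRapa 7 (61348). The median of 0.84 for diet includes these low counted genes. The better counted mt-Cytb and mt-Co1 had 0.52 and 0.50. The share of all counts from mitochondrial genes was 5.23% ± 1.21 (SD, n = 8) in ND+veh, 7.26% ± 1.66 (n = 7) in HFD+veh and 8.09% ± 1.57 (n = 9) in HFD+eRapa, with an exact permutation p (two-sided) of 0.0199 for diet (adjusted p = 0.0597), 0.319 for the drug (adjusted p = 0.383) and 0.00123 for both (adjusted p = 0.00740). Whether nuclear and mitochondrial genes differed in their response was not tested.

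The genes that build or feed these complexes were followed as lists of 140 genes, 137 of them tested. For diet 23 rose and 4 fell, for the drug 19 rose and 3 fell, and for both together 34 rose and 2 fell. These are 19.7%, 16.1% and 26.3% of the genes tested, where 25.9%, 32.0% and 13.5% of all genes were called. Of the genes that rose, the shares were 16.8%, 13.9% and 24.8%, against 16.0%, 10.9% and 6.93% of all genes. In the immune covariate fit 10 of the 27 calls for diet, 4 of the 22 for the drug and 36 of the 36 for both were kept. Over all genes tested, that fit called 8.78%, 6.89% and 19.4%. The calls that held without any single library were 11 for diet, 11 for the drug and 24 for both. Leaving out 1 library gave 16 to 29, 12 to 40 and 26 to 39 calls; for diet 17, 17 and 16 were left without ND+veh 1, HFD+veh 3 and HFD+veh 6, and for the drug 14, 12 and 40 without HFD+veh 3, 4 and 7.

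Among assembly factors, those of complexes II, III and V had 0 of 4, 0 of 6 and 0 of 5 calls for diet (edgeR; 2, 0 and 0 at an unadjusted p under 0.05, 0 by DESeq2 and 1, 0 and 0 by limma voom). For complex II, 1 of 4 rose with the drug, Sdhaf1, which inserts iron-sulphur clusters into Sdhb, by 0.61 (adjusted p = 0.0209), and 0 of 4 were called against ND+veh (0 at an unadjusted p under 0.05 and 0 by DESeq2). For complex III 2 of 6 rose with the drug and in HFD+eRapa against ND+veh, Ttc19 (0.21 and 0.35) and Uqcc1 (0.32 and 0.33). For complex IV 2 of 22 rose and 1 fell for diet, the fall being of Sco2, a copper chaperone, by 1.02 on the log2 scale (adjusted p = 0.00457), and Cmc1 rose by 0.45. With the drug 3 of 22 rose, led by Cox18 (0.42) and Cox15 (0.35), which makes heme A, and against ND+veh 3 rose, led by Coa6 (0.53, adjusted p = 0.00754). For complex V, Atpaf1, a chaperone of the beta subunit, rose by 0.33 with the drug (adjusted p = 0.0125) and by 0.40 against ND+veh (adjusted p = 0.00489), where 2 of 5 rose, the other being Tmem242 (0.34). Of the supercomplex and cristae genes, Immt rose for diet (0.30) and in HFD+eRapa against ND+veh (0.44), where Micos10 also rose (0.47), and 0 of 6 were called with the drug (4 at an unadjusted p under 0.05, and 0 by DESeq2). Atpaf1 held both calls without any single library, as did Sdhaf1, Cox15, Sco2, Cmc1, Coa6 and Immt the calls given here. Others were lost in some of the 24 fits without 1 library: with the drug Cox18 in 13 (adjusted p up to 0.0796), Ttc19 in 10 (up to 0.0813) and Uqcc1 in 3 (without HFD+veh 3, 4 or 6, up to 0.0643), and against ND+veh Tmem242 in 9 (up to 0.0869), Uqcc1 in 7 (up to 0.1002) and Micos10 in 2 (without ND+veh 4 or HFD+eRapa 8, up to 0.0615). The immune covariate fit ended the calls with the drug of Sdhaf1, Ttc19, Uqcc1, Cox15, Cox18 and Atpaf1.

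Of 7 tested genes for electron carriers around complexes III and IV, 2 rose with the drug. Etfdh, which passes electrons from fatty acid oxidation to coenzyme Q, was at 198 to 280 CPM in ND+veh (median 235), 190 to 324 in HFD+veh (median 271) and 364 to 437 in HFD+eRapa (median 377). Every HFD+eRapa animal exceeded every animal of the other groups, and the log2 fold changes were 0.58 against HFD+veh (adjusted p = 0.000895) and 0.71 against ND+veh (adjusted p = 7.87e-05). Etfa, Etfb (0.58) and Cycs, cytochrome c, also rose against ND+veh, so 4 of 7 were called there. Cyc1, cytochrome c1, a subunit of complex III outside the name rule, was the other gene called with the drug (0.46, adjusted p = 0.0493). That call was lost in 17 of 24 fits without 1 library (adjusted p up to 0.104) and in the immune covariate fit (0.23, adjusted p = 0.489). Cycs lost its call without ND+veh 3, ND+veh 4 or HFD+eRapa 8 (adjusted p up to 0.0613). For diet 0 were called by edgeR or DESeq2, with 0 at an unadjusted p under 0.05. Of 13 coenzyme Q genes, 6 rose with the drug, led by Coq3 (0.60) and Coq4 (0.46). The immune covariate fit ended all 6 of these calls, with Coq3 at 0.33 (adjusted p = 0.101) and Coq4 at 0.23 (adjusted p = 0.483), and the call of Coq4 was also lost in 18 of 24 fits without 1 library (adjusted p up to 0.115). For diet 3 rose and 1 fell, with Pdss1 at 0.88 (0.75 in the immune covariate fit, adjusted p = 0.0610) and Coq8a at -0.98, and against ND+veh 6 rose and 1 fell, with Coq7 at 0.79 and Coq8a at -0.78.

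Citrate synthase (Cs), the first enzyme of the tricarboxylic acid cycle, was at 118 to 180 CPM in ND+veh (median 165), 76.7 to 113 in HFD+veh (median 106) and 103 to 174 in HFD+eRapa (median 145), and the ND+veh and HFD+veh animals did not overlap. It fell by 0.66 on the log2 scale for diet (adjusted p = 0.000360) and rose by 0.53 with the drug (adjusted p = 0.00133). Of 14 genes of the cycle, 5 rose and 1 fell for diet, led by Cs and by Fh1, fumarase (0.64). With the drug 2 rose (Cs and Dlst, the latter by 0.50, which became 0.34 with adjusted p = 0.0600 in the immune covariate fit) and against ND+veh 7 rose, led by Dlst (0.80) and Fh1 (0.68). Cs, Etfdh, Fh1, Coq8a and Sco2 kept the calls given here in each of the 35 alternative fits.

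Of the 36 nuclear genes of complex I, 2 rose for diet (Ndufv2 by 0.36 and Ndufs1 by 0.28), 0 were called with the drug (4 at an unadjusted p under 0.05, 0 by DESeq2 and 1 by limma voom) and 3 rose against ND+veh, led by Ndufv2 (0.39) and Ndufs1 (0.36). The diet calls of Ndufv2 and Ndufs1 were lost in 11 and 10 of 24 fits without 1 library (adjusted p up to 0.129 and 0.147) and in the immune covariate fit (0.293 and 0.0858), and that of Ndufv2 against ND+veh in 10 of 24 (up to 0.0974). Their medians of 0.13, 0.14 and 0.29 lay close to those of complexes II to V. Among 7 genes for the exchange of ADP and ATP and related carriers, 3 rose for diet, 2 fell with the drug and 0 were called against ND+veh (edgeR, with 0 at an unadjusted p under 0.05 and 0 by DESeq2), led by Ucp2 (2.21 and -2.03) and Slc25a4 (1.77 and -2.37). Slc25a4 is low in these libraries, with medians of 1.73, 8.10 and 1.63 CPM in ND+veh, HFD+veh and HFD+eRapa, and Ucp2 is at 15.2, 102 and 25.2 CPM, and in the immune covariate fit the values became 0.39 and 0.18 for Ucp2 and -0.04 and -0.22 for Slc25a4, with no call left. The diet call of Slc25a4 was also lost without ND+veh 1, 5 or 7 or HFD+veh 3, 4 or 6 (adjusted p up to 0.1105). Of 11 regulators of mitochondrial biogenesis tested, Ppargc1b rose (0.67) and Yy1 fell (-0.33) for diet. With the drug Ppara rose by 1.06 and Tfb2m by 0.34 while Ppargc1a, the coactivator PGC-1 alpha, had -0.89 (adjusted p = 0.00525), and against ND+veh the same 3 genes were called at 0.71, 0.40 and -0.78. Of these, the immune covariate fit ended the calls of Yy1 (adjusted p = 0.146) and of Tfb2m with the drug (0.170). Without 1 library, Ppargc1b was lost in 8 of 24 fits (adjusted p up to 0.114) and Ppara against ND+veh in 10 (up to 0.0801), Yy1 without ND+veh 5, 6 or 7 (up to 0.0567), Tfb2m with the drug without HFD+veh 3 or 4 (up to 0.0524), and Ppargc1a against ND+veh without ND+veh 6 (0.0526).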

How the data were processed

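Counts and FPKM from 24 hepatocyte libraries were analysed. The authors aligned reads with STAR in 2-pass mode to mm10 with Gencode M23, and filtered with SAMtools 1.1.0. Raw counts per gene were deposited from HTSeq 0.11.2, and FPKM were made by the authors with Cufflinks. The strand setting is not given in the sources used here, so reads of overlapping or antisense genes could not be told apart.

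Genes passing edgeR's filterByExpr (13847 of 55421) were fitted over all 24 libraries in 1 model with TMM scaling and the quasi-likelihood test (edgeR 4.0.16, R 4.3.3), with Benjamini-Hochberg adjustment over all genes tested and a threshold of 0.05. CPM are TMM-scaled, and log2 CPM used a prior count of 2. Shares of paralogues, counts and mitochondrial reads were compared by exact two-sided permutation tests. Each replicate is 1 mouse and all are in batch 1 per the labels, so p-values measure the spread between these animals' libraries, and limits for counts of 0 cover counting error only. The pipeline was tested on simulated counts. Gene positions were read from Gencode M21 on GRCm38 (55154 IDs matched).

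Genes were named by a rule: all members, with the main subunits given in full, and up to 2 called genes of each other list in each comparison. Atp5g1, Atp5g3, Atp5k and Atp5d were singled out among the members, and Etfa, Cycs and Tfb2m named, after their values were seen. The members follow a rule on gene names that uses no measured value, but this rule and the lists were chosen with earlier results of these data known. Alternatives were DESeq2 1.42.0, limma 3.58.1 (voom, and log2 of FPKM plus 1 or 0.1), other scaling and filters, an immune covariate from 16 marker genes, a replicate block, only the groups compared, leaving out each library, and, added after seeing the data, leaving out ND+veh 4 and HFD+veh 6 together.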

Additional observations from a re-analysis of the deposited data

Results flagged for a closer look

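Among 99 sets of values from animals of 1 group, 7 had an animal at an end whose distance from its nearest neighbour was a large part of the whole range, against 4.95 that chance alone gives. ND+veh replicate 4 was low for Sdhd, at 6.80 log2 CPM where the others had 7.43 to 7.80, and for Atp5g1, at 6.25 where the others had 6.89 to 7.28. This library had the largest scaling factor, as given above, and the part of scaling in these values was not tested. For Cox7a2l, HFD+veh replicate 6 was high at 6.53 log2 CPM (others 5.98 to 6.22) and HFD+eRapa replicate 9 was low at 6.00 (others 6.37 to 6.71), each on the side towards the other group. ND+veh replicate 8 had a Cox7a2 share of 79.9% among its paralogues, where the others had 65.9 to 72.3%, and a mitochondrial share of counts of 8.15%, where the others had 4.38 to 5.19%. HFD+veh replicate 3 had 19.8 M counts in all, where the others of its group had 21.3 to 22.0 M.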

How the results depend on the processing

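Counts of calls were small and moved with the fit. Values are given in the order diet (HFD+veh against ND+veh), drug (HFD+eRapa against HFD+veh) and both (HFD+eRapa against ND+veh). Members called without 1 library at a time ran from 0 to 3, 1 to 8 and 0 to 7, and their median log2 fold change from 0.04 to 0.19, 0.08 to 0.24 and 0.20 to 0.35. Partner genes called ran from 16 to 29, 12 to 40 and 26 to 39. Without ND+veh 1 0 members were called for both, without ND+veh 4 only Cox7a1 (lower), and without HFD+eRapa 9 there were 7. These fits called 12.2%, 12.2% and 13.1% of all genes.

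Without a filter 0 members were called for both and 12 partner genes for diet, where 4.56% and 9.62% of all genes were called. With at least 10 counts in every library 1 member was called for diet and 2 for the drug, where Cox7a1 is not tested. That fit called 24.7% and 26.1% of all genes tested. The replicate block, over numbers that do not pair the animals, gave 3, 6 and 16 members. It called 17.8%, 18.3% and 11.4% of all genes. Deviations of animals with the same number correlated above 0.1 in 5 of 7, 2 of 7 and 2 of 8 pairs. The immune covariate left 0 members and 4 partner genes for the drug and 10 partner genes for diet. It called 6.89% of all genes for the drug and 8.78% for diet. Fitting only the groups compared gave 17 partner genes for diet, where 17.4% of all genes were called. FPKM, with either pseudocount, gave 2 members for diet, 1 for the drug and 22 partner genes for both. With a pseudocount of 1, 19.7%, 24.7% and 10.5% of all genes were called. Without ND+veh 4 and HFD+veh 6 together, chosen after seeing the data, 14 partner genes were called for diet, 2 members for the drug and 1 for both. Of all genes tested, 16.7%, 24.3% and 14.9% were then called. The cause of these moves was not tested. Summed CPM in place of FPKM moved the difference of medians with the drug from -0.836% to 11.6% (complex II), 23.4% to 35.9% (III), 10.9% to 22.8% (IV) and 12.3% to 31.5% (V), and for both from 11.7% to 22.4% (II). For diet it turned from 4.15% to -3.59% (III), 1.48% to -2.20% (IV) and 1.74% to -7.47% (V), each a move of less than 1 SD between animals.

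Fold changes that changed sign are on the log2 scale. For diet Atp5b became -0.028 (no filter), -0.0049 (only the groups compared), -0.020 (voom) and -0.15 (FPKM, either pseudocount), and Cox5a 0.0028 (at least 10 counts), 0.0084 (replicate block) and 0.064 (immune covariate). The immune covariate also gave Sdhd 0.045, Uqcrc1 0.080, Cox7a1 -0.093, Atp5g3 0.0996 and Slc25a4 -0.044 for diet, and Atp5k 0.40 and Ucp2 0.18 for the drug. FPKM gave Uqcrq 0.069 and mt-Atp8 -0.12 for diet, Sdhb -0.029 for the drug, and Sdhd -0.033 and Cox6a1 -0.014 for both. Atp5k became 0.052 (no filter), 0.012 (only the groups compared) and 0.0015 (DESeq2) for the drug, Atp5g1 0.0072 for both (replicate block), and, without the pair of libraries, Cox7a1 -0.049 for diet and Cox4i1 -0.014 for both. None of these changes of sign ended a call among the members, since none was called in that comparison.

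Leaving out 1 library turned the sign of fold changes that ran as follows. For diet they were Sdhd -0.14 to 0.011, Uqcrc1 -0.16 to 0.020, Cox5a -0.12 to 0.016, Atp5b -0.068 to 0.048, Atp5g1 -0.057 to 0.11, Atp5g3 -0.14 to 0.0089, for the drug Sdhb -0.013 to 0.11, Atp5k -0.17 to 0.14, and for both Sdhd -0.021 to 0.13, Cox4i1 -0.040 to 0.094. Differences in isoform shares, in percentage points, ran for diet from -1.17 to 0.029 (Atp5g2) and -0.010 to 0.40 (Cox7a1), for the drug from 0.28 to 1.48 (Atp5g2) and -1.43 to 0.068 (Cox7a2), and for both from -1.13 to -0.72 (Cox7a1), 0.88 to 2.87 (Cox7a2) and -1.79 to 0.25 (Cox7a2l).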
